A study of Mus musculus with 12 samples.

Results

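The carbonic anhydrases of the alpha family were examined in the supporting cells of the organ of Corti, the hearing organ of the cochlea. Pillar cells line the tunnel between the inner and outer hair cells, and Deiters' cells hold the outer hair cells from below. The 10 members, Car2, Car3, Car4, Car5b, Car7, Car8, Car11, Car12, Car13 and Car14, were taken by gene symbol from the 48440 features measured, which hold 16 carbonic anhydrase genes of this family in all. Of the 10 members, 9 had a mean above 0.1 RPKM (reads scaled to the length of the transcript and to the mapped reads) in at least 1 cell type and were tested, and Car4 was listed at 0 in every library. Both groups came from adult CBA/J mice, aged 28 to 32 days by the sample labels, with no transgene or treatment. The basilar membrane with the organ of Corti was digested for a short time, the cells were dispersed, and cells recognized by their shape alone were drawn up singly with a suction pipette. About 1000 cells of 1 type went into each RNA sample, so a library stands for a pool of cells, and 3 libraries were made for each cell type. Each library was read in 2 lanes, which were averaged.

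Carbonic anhydrases are zinc enzymes that interconvert carbon dioxide and water with bicarbonate and a proton. The members differ in where they work. Some are dissolved in the cytosol, some sit in the membrane with the active site facing out of the cell, and 1 is in mitochondria. A few have lost some or all of the residues that hold zinc and do not catalyse the reaction. In the cochlea the enzymes are known from supporting cells, the spiral ligament and the stria vascularis, and are thought to take part in the handling of acid and carbon dioxide from the metabolism of the sensory epithelium.

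The zinc ion of an active member is held by 3 histidines. They lie at positions 94, 96 and 119 of the Car2 protein, counted from its first methionine. The coding sequence over these positions is printed, 5′ to 3′ on the coding strand, for the members on which the results turn, since it tells the active members from Car11, which lacks the zinc site. The sequences were read from the GENCODE M21 transcripts on GRCm38, and capitals mark the codons that line up with the 3 histidine codons of Car2.
Car2: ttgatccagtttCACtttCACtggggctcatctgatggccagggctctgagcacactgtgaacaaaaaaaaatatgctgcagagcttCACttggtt
Car3: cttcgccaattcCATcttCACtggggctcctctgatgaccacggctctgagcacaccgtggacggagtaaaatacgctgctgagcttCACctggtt
Car13: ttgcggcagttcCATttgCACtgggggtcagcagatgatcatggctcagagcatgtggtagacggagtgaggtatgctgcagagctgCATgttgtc
Car7: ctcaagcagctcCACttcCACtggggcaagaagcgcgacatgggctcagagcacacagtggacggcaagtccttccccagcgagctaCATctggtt
Car14: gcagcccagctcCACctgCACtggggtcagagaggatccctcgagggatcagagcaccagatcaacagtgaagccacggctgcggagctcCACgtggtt
Car11: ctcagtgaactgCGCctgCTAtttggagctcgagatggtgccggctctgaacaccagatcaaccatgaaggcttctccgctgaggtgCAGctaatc
In Car2, Car3, Car13, Car7 and Car14 each marked codon encodes histidine, and the same held for Car4, Car5b and Car12. Car11 kept 0 of 3, with H94R, H96L and H119Q. Car8, not printed, kept 2 of 3, with H94R alone. Over the whole protein, as translated from the same transcripts, Car3 shared 56.9% of its aligned residues with Car2, Car13 shared 56.5% and Car7 shared 55.0%. The share was 37.2% for the membrane-bound Car14 and 33.3% for Car11.

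A gene was called when limma, fitted over all 17188 tested features, gave an adjusted p (Benjamini-Hochberg) of at most 0.01 and the cell types differed by at least 2-fold on the scale of log2(RPKM + 0.1). All log2 fold changes are on that scale, as pillar minus Deiters' cells. Of all tested features, 14.7% were called higher in pillar cells and 14.0% higher in Deiters' cells. Each count of calls in a list below is to be read beside these shares. The markers of the collected cells themselves did not all follow the labels. Of 7 pillar cell genes, 6 were tested, with 1 called higher in pillar cells (S100b) and 3 higher in Deiters' cells (Cryab, Smagp and Npy). Npy, listed at 0 in every pillar cell library, passed the 0.1 RPKM minimum only through Deiters' cells (0.406 ± 0.27 RPKM, SD, n = 3). Ngfr, which the study detected by antibody in adult pillar cells, was the gene not tested. Both of its means fell short of that minimum (pillar 0.015, Deiters' 0.081 RPKM). Of 5 Deiters' cell genes, 1 was called in each direction. Of 9 genes shared by supporting cells, none was listed at 0 in all libraries, with 3 called higher in pillar cells and 1 higher in Deiters' cells. By the steps of their values, the libraries were scaled to 18641354 to 21557584 reads, and the lanes to 9293651 to 10877223. The study states several times as many paired-end reads per sample, and why these numbers are lower was not tested. Clustering that was set to give 2 sets divided the 12 lanes. Between the sets, 528 of 13263 genes above 1 RPKM (4.0%) differed by more than 2-fold in both cell types. The first set held 4 of 6 Deiters' cell lanes and 2 of 6 pillar cell lanes, so the sets and the cell types overlap in part. The sets also ran through libraries. Deiters' cell libraries 1 and 2 and pillar cell libraries 1 and 3 had 1 lane in each set. Both lanes of Deiters' cell library 3 lay in set 1, and both of pillar cell library 2 in set 2. Why lanes labelled as the same library differed was not tested. Of the members, 8 were above 1 RPKM, and none of these was among the 528 genes. In such pooled samples, more cells of a type cannot be told apart from more RNA per cell.

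The family was expressed strongly in both cell types, but different members carried it. In pillar cells Car14 was highest at 532.7 ± 13.5 RPKM (SD, n = 3), followed by Car3, Car2 and Car13. In Deiters' cells Car3 was highest at 803.0 ± 9.69 RPKM (SD, n = 3), followed by Car2, Car13 and Car14. Car14 and Car7 were called higher in pillar cells with a wide margin, and Car13 and Car5b were called higher in Deiters' cells in the same way.

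Of the 9 members tested, 3 were called higher in pillar cells (Car14, Car7 and Car8), where 14.7% of all tested features were called in that direction. Another 3 were called higher in Deiters' cells (Car3, Car13 and Car5b), where the share of all tested features was 14.0%. Car2, Car11 and Car12 were under 2-fold. Without the fold minimum, 9 of 9 members had an adjusted p (limma) of at most 0.01, beside 61.9% of all tested features. The libraries of the 2 cell types did not overlap for 9 of 9 members, beside 76.5% of all tested features. Car8 passed the filter on low values only through its level in pillar cells, so its place in these counts follows in part from the filter.

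**Figure D1:**
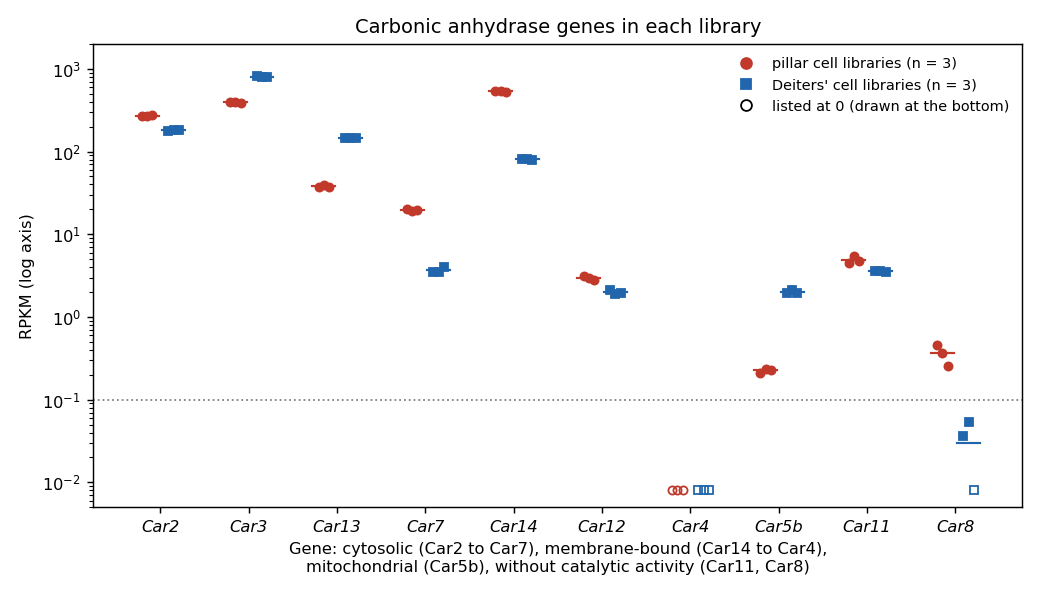
RPKM of the 10 members (log axis) in each library, with pillar cell libraries as red circles, Deiters' cell libraries as blue squares, a short line at each mean, open symbols for libraries listed at 0, and a dotted line at 0.1 RPKM. Car14 and Car7 stand higher in pillar cells and Car3, Car13 and Car5b higher in Deiters' cells, while Car4 is at 0 in every library.

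The cytosolic members were the largest group by level. Car2, a fast enzyme found in many tissues, lies on chromosome 3 (GRCm38 chr3:14886273-14900770, plus strand, ENSMUSG00000027562). It stood at 271.4, 266.2 and 275.0 RPKM in pillar cell libraries 1 to 3 and at 177.6, 184.2 and 181.2 RPKM in Deiters' cell libraries 1 to 3. All pillar cell libraries were above all Deiters' cell libraries, and the libraries of a cell type lay close together. The mean was 270.9 ± 4.40 RPKM in pillar cells beside 181.0 ± 3.28 RPKM in Deiters' cells (SD, n = 3 each), a log2 fold change of 0.58 ± 0.02 (SE, limma adjusted p = 3.4e-06). The 1.5-fold difference of the means was larger than the spread between libraries but under the 2-fold needed for a call. Car2 was among the most abundant transcripts of both cell types, at rank 162 of all features in pillar cells and rank 292 in Deiters' cells. Osteoclasts of the surrounding bone are rich in Car2, and the osteoclast genes Calcr, Ocstamp and Dcstamp were listed at 0 in every library. Other genes of osteoclasts were present: Ctsk stood at 1.67 ± 0.310 RPKM in pillar cells beside 0.564 ± 0.0887 RPKM in Deiters' cells and Mmp9 at 2.03 ± 0.0421 beside 0.562 ± 0.0130 RPKM (SD, n = 3 each), both called higher in pillar cells as Car2 was higher there. Acp5 stood at 2.24 ± 0.517 and 2.05 ± 0.349 RPKM and was not called. Of the whole list of 11 genes of osteoclasts and bone, 8 were tested and 4 called higher in pillar cells. Of the 4, Sp7 passed the filter only through pillar cells. The summed level of the list was 37.8 to 42.9 RPKM in pillar cell libraries beside 16.9 to 20.2 RPKM in Deiters' cell libraries. The part of osteoclasts and bone cells in the level of Car2 was not tested.

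Car3 encodes a slow cytosolic isoform that is best known from skeletal muscle, liver and fat (chr3:14863512-14872523, plus strand, ENSMUSG00000027559). Pillar cell libraries stood at 402.4, 401.2 and 389.7 RPKM, and Deiters' cell libraries stood at 809.7, 791.9 and 807.5 RPKM. The groups were far apart, with the libraries of each cell type close together. The mean was 397.8 ± 7.01 RPKM in pillar cells beside 803.0 ± 9.69 RPKM in Deiters' cells (SD, n = 3 each), which is 2.02-fold higher in Deiters' cells. The log2 fold change of -1.01 ± 0.02 (SE, limma adjusted p = 3.6e-07) lay at the edge of the 2-fold minimum. It was -0.999 without pillar cell library 3, with a limma adjusted p of 1.1e-05, and so it was no longer called there. Car3 ranked 43rd among all features in Deiters' cells and 104th in pillar cells. Muscle and fat are tissues that could be collected along. Of the genes of fat cells, Cfd and Lep were listed at 0 in every library, and Adipoq was listed at 0 in pillar cells and stood at 0.191 ± 0.0667 RPKM in Deiters' cells (SD, n = 3). Of the whole fat and skeletal muscle list of 9 genes, 5 were tested. Of these, 3 were called higher in pillar cells, among them Ckm, which passed the filter only through pillar cells. Another 1, Adipoq, was called higher in Deiters' cells, through which alone it passed the filter. The summed level of the list was 7.85 to 8.92 RPKM in pillar cell libraries and 3.49 to 3.55 RPKM in Deiters' cell libraries. The part of these tissues in the level of Car3 was not tested.

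Car13, a further cytosolic enzyme with a moderate rate (chr3:14641727-14663002, plus strand, ENSMUSG00000027555), varied little between libraries. It stood at 37.47, 39.25 and 37.51 RPKM in pillar cell libraries and at 145.3, 144.2 and 144.1 RPKM in Deiters' cell libraries. No library of 1 cell type came near those of the other. Car13 was 3.80-fold higher in Deiters' cells, with means of 144.5 ± 0.691 RPKM there and 38.1 ± 1.02 RPKM in pillar cells (SD, n = 3 each). The log2 fold change was -1.92 ± 0.03 (SE, limma adjusted p = 6e-08). In Deiters' cells the SD was 0.478% of the mean, on 7203, 6388 and 6174 reads. That is less than the error expected from counting so many reads. The p-value rests in part on this spread, which may understate that between pools of cells.

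Car7 is a cytosolic isoform known mainly from neurons (chr8:104534689-104550343, plus strand, ENSMUSG00000031883). It stood at 20.12, 19.28 and 19.87 RPKM in pillar cell libraries and at 3.547, 3.525 and 4.015 RPKM in Deiters' cell libraries. Each pillar cell library was several times as high as each Deiters' cell library. The means were 19.8 ± 0.431 and 3.70 ± 0.277 RPKM (SD, n = 3 each), a 5.35-fold higher level in pillar cells with a log2 fold change of 2.39 ± 0.06 (SE, limma adjusted p = 4.4e-07). The direction of Car7 was thus the opposite of that of Car3 and Car13, which work in the same compartment.

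Among the membrane-bound members, Car14 differed most. Car14 is a single-pass membrane protein whose active site faces out of the cell, and it is known from kidney, liver, brain and retina (chr3:95897768-95904691, minus strand, ENSMUSG00000038526). Pillar cell libraries stood at 545.3, 534.5 and 518.5 RPKM, and Deiters' cell libraries stood at 81.94, 82.11 and 79.3 RPKM. The lowest pillar cell library was several times as high as the highest Deiters' cell library. The mean of 532.7 ± 13.5 RPKM in pillar cells was 6.57-fold higher than the mean of 81.1 ± 1.57 RPKM in Deiters' cells (SD, n = 3 each), with a log2 fold change of 2.71 ± 0.03 (SE, limma adjusted p = 2.8e-08). On the log2 scale with its pseudocount this was the largest difference of the members, next to that of Car5b, and Car14 was at rank 75 of all features in pillar cells and rank 790 in Deiters' cells. The 3′ end of Car14 overlaps Aph1a on the opposite strand, and the library kit does not keep the strand. Aph1a itself stood at 5.02 RPKM in pillar cells beside 7.83 RPKM in Deiters' cells, and the part of its reads in the level of Car14 was not tested.

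The 3 genes whose values over the 6 libraries lay nearest to those of Car14, by Euclidean distance of log2(RPKM + 0.1), were Pcp4 at a distance of 0.90, Acbd7 at 1.06 and Gm525 at 1.15. Pcp4, which encodes a small regulator of calmodulin, stood at 614.3 ± 39.8 RPKM in pillar cells beside 112.2 ± 5.00 RPKM in Deiters' cells (SD, n = 3 each). Acbd7 and Gm525 stood at 379.2 ± 17.3 and 346.0 ± 5.34 RPKM in pillar cells and at 103.1 ± 9.50 and 94.1 ± 7.18 RPKM in Deiters' cells (SD, n = 3 each). The distance measures likeness of level and of difference in these libraries only.

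Car12, a membrane-bound enzyme of many epithelia, was low in both cell types (chr9:66713686-66766845, plus strand, ENSMUSG00000032373). It stood at 3.143, 2.943 and 2.767 RPKM in pillar cell libraries and at 2.147, 1.921 and 1.938 RPKM in Deiters' cell libraries. The groups did not overlap, but the difference was small. The means were 2.95 ± 0.188 and 2.0 ± 0.126 RPKM (SD, n = 3 each), a 1.47-fold difference with a log2 fold change of 0.54 ± 0.08 (SE, limma adjusted p = 0.0011), under the 2-fold minimum. Car4, which encodes an enzyme tied to the outer face of the membrane by a lipid anchor and is known from capillary endothelium and kidney (chr11:84957786-84966044, plus strand, ENSMUSG00000000805), was listed at 0 in all 6 libraries. At the depth of these libraries 3 reads of Car4, the upper limit that a count of 0 allows, stand for 0.0708 to 0.0819 RPKM. Of 7 endothelial genes, 6 were tested, 3 of them called higher in pillar cells and 1 higher in Deiters' cells, with a summed level of 12.2 to 13.2 RPKM in pillar cell libraries and 5.18 to 5.55 RPKM in Deiters' cell libraries. Among those called, Pecam1 passed the filter only through pillar cells and Tek only through Deiters' cells.

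Car5b, the mitochondrial member, lies on the X chromosome (chrX:163976822-164027997, minus strand, ENSMUSG00000031373). It stood at 0.2104, 0.2382 and 0.2304 RPKM in pillar cell libraries and at 1.97, 2.148 and 1.924 RPKM in Deiters' cell libraries. All pillar cell libraries were low and all Deiters' cell libraries several times as high. Car5b was 8.90-fold higher in Deiters' cells, with a log2 fold change of -2.70 ± 0.11 (SE, n = 3 each, limma adjusted p = 2.6e-06). Behind these values were 84 reads in the pillar cell libraries and 761 in the Deiters' cell libraries, and the ratio of reads, scaled to the depth, was 0.112 (95% exact interval of counting, 0.0885 to 0.141). With a pseudocount of 1 RPKM the log2 fold change of Car5b was -1.30, still called. Car5a, the other mitochondrial carbonic anhydrase and not among the 10 members, had 2 reads in all pillar cell libraries and 1 read in all Deiters' cell libraries.

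Car8 and Car11 are called carbonic anhydrase-related proteins, since they do not catalyse the reaction. The Car8 protein is known in cerebellar Purkinje cells as a partner of the inositol trisphosphate receptor Itpr1 (gene at chr4:8143362-8239041, minus strand, ENSMUSG00000041261). It stood at 0.4624, 0.3661 and 0.2575 RPKM in pillar cell libraries and at 0.03601, 0.05382 and 0 RPKM in Deiters' cell libraries. The groups did not overlap, and every Deiters' cell library was below the 0.1 RPKM that served as background level. The log2 fold change was 1.83 ± 0.25 (SE, n = 3 each, limma adjusted p = 0.00062), with the largest standard error of the members. It rested on 36, 27 and 19 reads in pillar cell libraries and 3, 4 and 0 reads in Deiters' cell libraries, and the ratio of reads scaled to the depth was 11.9 (95% exact interval of counting, 5.53 to 30.6). With a pseudocount of 1 RPKM in place of 0.1 the log2 fold change was 0.401, under the 2-fold minimum, and with 0.01 RPKM it was 3.55. With the lanes of set 2 alone it was 1.53 and not called (limma adjusted p = 0.011).

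Car11 encodes a secreted protein of the nervous system (chr7:45699843-45704682, plus strand, ENSMUSG00000003273). It stood at 4.448, 5.432 and 4.765 RPKM in pillar cell libraries and at 3.639, 3.584 and 3.455 RPKM in Deiters' cell libraries. The lowest pillar cell library lay above the highest Deiters' cell library, but the gap was less than the range of the pillar cell libraries. The means were 4.88 ± 0.503 and 3.56 ± 0.0942 RPKM (SD, n = 3 each), a 1.37-fold difference with a log2 fold change of 0.44 ± 0.08 (SE, limma adjusted p = 0.0028). Car11 was not called, and over the other settings tried its limma adjusted p ran from 0.0024 to 0.076.

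**Figure D2:**
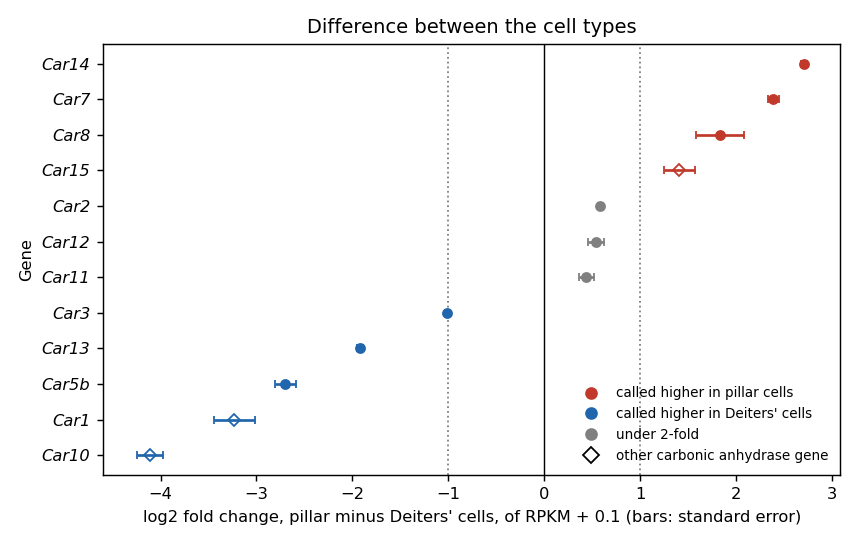
Log2 fold change of RPKM + 0.1, pillar minus Deiters' cells, of the 12 carbonic anhydrase genes tested, with standard errors from limma, dotted lines at 2-fold, filled circles for the members and open diamonds for other genes of the family. Car14, Car7, Car8 and Car15 lie beyond 2-fold on the pillar cell side and Car3, Car13, Car5b, Car1 and Car10 on the Deiters' cell side, with Car3 at the line.

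Compared per length of transcript, the levels of the members fell into clear steps. In pillar cells the order was Car14, Car3, Car2, Car13, Car7, Car11 and Car12, and no neighbours in that order overlapped between libraries. Car8 and Car5b followed at the bottom. The library ranges of Car8 overlapped those of Car1, a gene outside the 10 members, and those of Car1 overlapped those of Car5b. In Deiters' cells the order was Car3, Car2, Car13 and Car14, again with no overlap between neighbours, and then Car7, Car11, Car5b, Car12 and Car8. There the library ranges of Car7 and Car11 overlapped, and so did those of Car5b and Car12.

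The summed level of the 10 members was similar in the 2 cell types although its makeup was not. It was 1284.9, 1269.4 and 1248.6 RPKM in pillar cell libraries and 1225.9, 1213.7 and 1223.4 RPKM in Deiters' cell libraries. The groups did not overlap, but the means of 1267.6 ± 18.2 and 1221.0 ± 6.47 RPKM (SD, n = 3 each) lay within a few percent of each other. Between the lanes of a library, Car14 differed by 0.121 to 5.43%, Car3 by 0.362 to 2.58%, Car2 by 1.29 to 5.38% and Car13 by 1.09 to 5.72%. No test was made of the sum or of the shares of it.

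Car14 made up 42.0% ± 0.462 of the sum in pillar cells beside 6.64% ± 0.146 in Deiters' cells (SD, n = 3 each). Car3 made up 31.4% ± 0.205 in pillar cells beside 65.8% ± 0.448 in Deiters' cells. The share of Car2 was 21.4% ± 0.570 in pillar cells beside 14.8% ± 0.343 in Deiters' cells. By compartment, the cytosolic members together held 57.3% ± 0.469 of the sum in pillar cells beside 92.7% ± 0.166 in Deiters' cells, and the membrane-bound members held 42.3% ± 0.473 and 6.81% ± 0.148. The members without catalytic activity stayed below 1% of the sum in every library. Within a library, there was 1.34 times as much Car14 as Car3 in pillar cells and 0.101 times as much in Deiters' cells, a ratio that does not depend on the scaling between libraries.

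**Figure D3:**
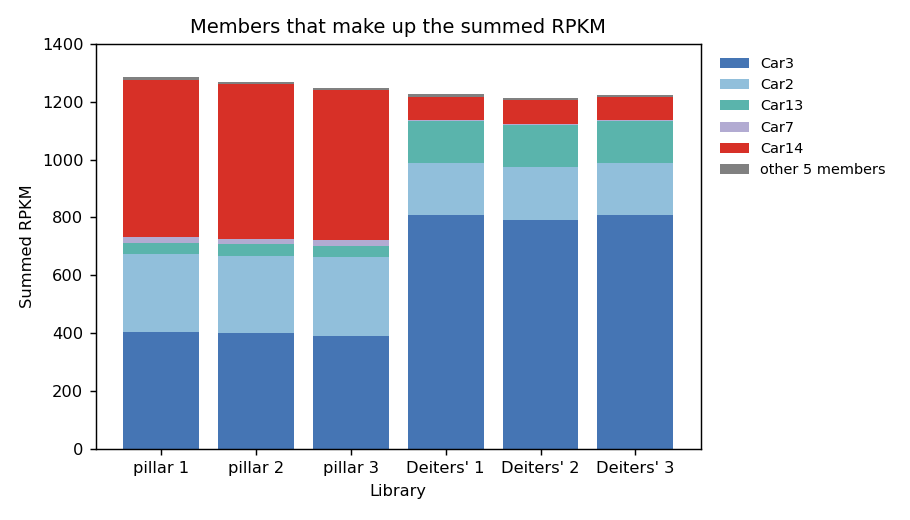
Summed RPKM of the 10 members in each library, stacked by member. The bars are of similar height, between 1213.7 and 1284.9 RPKM, with Car14 the largest block in the 3 pillar cell libraries and Car3 the largest block in the 3 Deiters' cell libraries.

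Among these members, Car13, Car3 and Car2 are neighbours on chromosome 3. With Car1, a cytosolic enzyme best known from red blood cells, they are the only 4 protein-coding genes in the 259.0 kb from the start of Car13 to the end of Car2. Their start sites lie 0, 166.6, 221.8 and 244.5 kb from that of Car13, in the order Car13, Car1, Car3 and Car2, and Car1 alone is on the minus strand. Car1 stood at 0.1985, 0.4195 and 0.3336 RPKM in pillar cell libraries and at 4.094, 3.661 and 3.439 RPKM in Deiters' cell libraries. Car1 was called higher in Deiters' cells, with a log2 fold change of -3.23 ± 0.21 (SE, n = 3 each, limma adjusted p = 2.1e-05). Thus Car13, Car1 and Car3 were higher in Deiters' cells, while Car2, which starts 13.8 kb past the end of Car3 on the same strand, was higher in pillar cells by less than 2-fold. The 3 members called higher in pillar cells lie elsewhere, Car7 on chromosome 8, Car8 on chromosome 4 and Car14 far along chromosome 3.

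**Figure D4:**
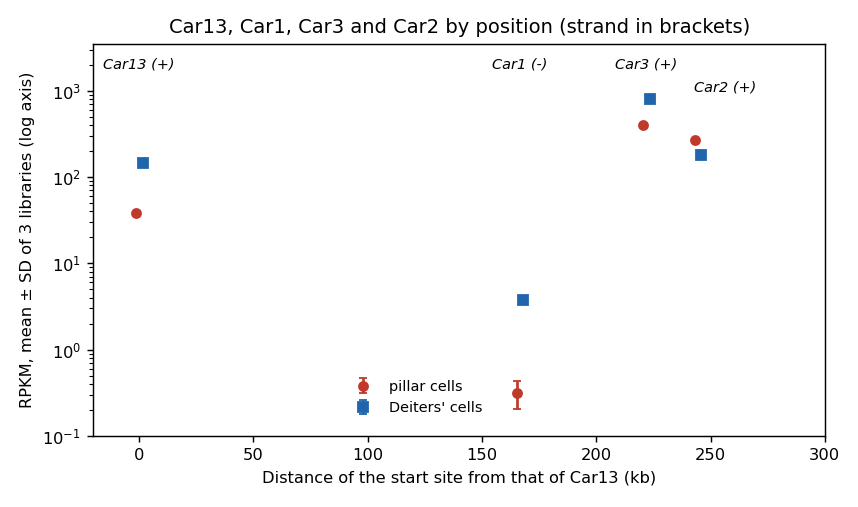
Mean RPKM ± SD of 3 libraries (log axis) of Car13, Car1, Car3 and Car2 in pillar cells (red circles) and Deiters' cells (blue squares), by the distance of their start sites from that of Car13. Blue lies above red for the genes at 0, 166.6 and 221.8 kb and below red for Car2 at 244.5 kb.

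Red blood cells carry Car1 and Car2, and their markers were high in these libraries. The 8 red cell genes summed to 4800 to 4880 RPKM in pillar cell libraries and 2970 to 3460 RPKM in Deiters' cell libraries. Of the 8, 3 were called higher in pillar cells (Alas2, Epb42 and Ermap) and 0 higher in Deiters' cells. Epb42 passed the filter only through pillar cells. Most of the sum came from the globin genes Hba-a1, Hba-a2, Hbb-bs and Hbb-bt, which were not called (limma adjusted p from 0.015 to 0.84). Car2 was higher in pillar cells and Car1 in Deiters' cells. The part of red cells in the levels of Car2 and Car1 was not tested.

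Of the remaining genes of the family, Car10, which like Car11 encodes a related protein of the nervous system and kept 1 of the 3 histidine codons, was listed at 0 in every pillar cell library. It stood at 1.802, 1.69 and 1.417 RPKM in Deiters' cell libraries, on 622 reads, and was called higher there. It passed the filter only through Deiters' cells, so a difference was built into its being tested. Car15, a membrane-bound enzyme, stood at 0.548 ± 0.0766 RPKM in pillar cells beside 0.144 ± 0.0228 RPKM in Deiters' cells (SD, n = 3 each) and was called higher in pillar cells, with a log2 fold change of 1.41 ± 0.16 (SE, limma adjusted p = 0.00025). Car15 shares its strand and reads with Gm20518, so its level is uncertain. Car6 and Car9 were listed at 0 in every library. Together with the members, 12 carbonic anhydrase genes were tested. Of the 12, 4 were called higher in pillar cells, with the uncertain Car15 among them, and 5 higher in Deiters' cells. Over all tested features the shares were 14.7% and 14.0%. Car8 and Car10 passed the filter through 1 cell type alone.

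A pair of receptor tyrosine phosphatases carry a carbonic anhydrase domain without enzyme activity outside the cell. Ptprz1 stood at 9.75 ± 0.349 RPKM in pillar cells beside 1.47 ± 0.0442 RPKM in Deiters' cells (SD, n = 3 each), with a log2 fold change of 2.65 ± 0.06 (SE, limma adjusted p = 2.7e-07), and was called higher in pillar cells. Ptprg, its close relative, went the other way and was not called, at 1.72 ± 0.142 and 3.46 ± 0.107 RPKM with a log2 fold change of -0.97 ± 0.08 (SE, limma adjusted p = 6.1e-05).

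Transporters of bicarbonate, the product of the enzymes, and their relatives in the Slc4 and Slc26 families were counted from a fixed list. It held 15 genes, of which 12 were tested. Of these, 4 were called higher in pillar cells and 3 higher in Deiters' cells, beside 14.7% and 14.0% of all tested features. Their median log2 fold change was 0.13 beside 0.00 over all tested features. Slc4a11, in the list by its family and described as a proton transporter, was the highest of those called. It stood at 33.3 ± 1.44 RPKM in pillar cells beside 10.7 ± 0.258 RPKM in Deiters' cells (SD, n = 3 each). The sodium-bicarbonate cotransporter Slc4a4 stood at 1.60 ± 0.142 and 0.328 ± 0.0820 RPKM, the related Slc4a10 at 2.07 ± 0.190 and 0.479 ± 0.00430 RPKM, and the anion exchanger Slc26a7 at 2.75 ± 0.173 and 1.23 ± 0.133 RPKM. The limma adjusted p of these 4 genes ran from 4.8e-07 to 9.8e-05. Slc26a4, the highest of the list, stood at 48.1 ± 0.444 RPKM in pillar and 26.3 ± 0.546 RPKM in Deiters' cells (SD). Its log2 fold change of 0.87 ± 0.03 (SE, limma adjusted p = 9.7e-07) was under the 2-fold minimum. Those called higher in Deiters' cells, the anion exchangers Slc4a3 and Slc26a6 and the transporter Slc4a9, were each below 1 RPKM, and Slc26a6 and Slc4a9 passed the filter only through Deiters' cells.

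Of 6 monocarboxylate transporters and their chaperones, which move lactate together with a proton, 4 were tested. Emb, which encodes the chaperone embigin, was called higher in Deiters' cells at 502.6 ± 16.6 RPKM beside 163.9 ± 1.89 RPKM (SD, n = 3 each), with a log2 fold change of -1.62 ± 0.03 (SE, limma adjusted p = 1.4e-07). The transporter Slc16a1 was higher in pillar cells, at 1.22 ± 0.0613 RPKM beside 0.604 ± 0.128 RPKM (SD, n = 3 each). The transporter Slc16a7 and the chaperone gene Bsg had higher means in Deiters' cells. Slc16a1, Slc16a7 and Bsg were not called. Of 4 pores for carbon dioxide or ammonia, 3 were tested, and Rhbg, an ammonia transporter listed at 0 in every pillar cell library, was called higher in Deiters' cells at 0.395 ± 0.115 RPKM (SD, n = 3), through which alone it passed the filter.

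No gene was called among the 7 tested of 10 enzymes that use bicarbonate, whose median log2 fold change was -0.32. The highest of them, Pccb and Mccc2 of mitochondrial carboxylases, stood at 24.4 ± 0.589 and 23.5 ± 0.849 RPKM in pillar cells and at 30.6 ± 1.10 and 25.4 ± 1.10 RPKM in Deiters' cells (SD, n = 3 each). The limma adjusted p was 0.00029 for Pccb, at less than 2-fold, and 0.056 for Mccc2. The same held for the 3 inositol trisphosphate receptors, to 1 of which the Car8 protein binds. Itpr1 stood at 6.40 ± 0.291 RPKM in pillar cells beside 5.05 ± 0.190 RPKM in Deiters' cells (SD, n = 3 each, limma adjusted p = 0.0016), a 1.27-fold difference, and Itpr2 stood at 3.93 ± 0.0984 and 2.13 ± 0.147 RPKM, a 1.85-fold difference.

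Markers of other cells of the cochlea differed between the libraries along with the members. All 10 hair cell genes were called higher in pillar cells, with a summed level of 703 to 742 RPKM in pillar cell libraries and 110 to 117 RPKM in Deiters' cell libraries, and none of them was at 0. Lhfpl5, a part of the mechanotransduction complex of hair cells, stood at 270.9 ± 7.32 and 12.1 ± 0.593 RPKM (SD, n = 3 each). The study read hair cell genes such as Lhfpl5, Otof and Tmc1 as expressed by pillar cells themselves. It held contamination by hair cells to be highly unlikely, given how the cells look. By q-PCR on cells from further mice it reported the same direction for these genes. All 4 fibrocyte genes were called higher in pillar cells, with a summed level of 2490 to 2520 RPKM beside 694 to 764 RPKM in Deiters' cell libraries. Of 4 genes of Hensen, Claudius and outer sulcus cells, 3 were called higher in Deiters' cells. The summed level of the 4 was 280 to 292 RPKM there and 97.9 to 99.6 RPKM in pillar cell libraries. The gene not called, Slc26a4, was higher in pillar cells, at 48.1 ± 0.444 RPKM beside 26.3 ± 0.546 RPKM (SD, n = 3 each). The stria vascularis, which holds carbonic anhydrases itself, had 2 of 6 genes called in each direction, with a summed level of 17.4 to 18.7 RPKM in pillar cell libraries and 11.3 to 16.1 RPKM in Deiters' cell libraries. Among these calls, Esrrb passed the filter only through pillar cells, and Tyr and Pmel only through Deiters' cells. All 10 granulocyte genes were called, 5 in each direction, with a summed level of 500 to 521 RPKM in pillar cell libraries and 326 to 351 RPKM in Deiters' cell libraries. Prg2 and Epx, called higher in Deiters' cells, passed the filter only there. The granulocyte gene Ngp stood at 127.2 ± 2.24 and 8.58 ± 1.48 RPKM and Mpo at 6.96 ± 0.522 and 39.4 ± 1.04 RPKM (SD, n = 3 each). The macrophage genes summed to 7.18 to 7.52 and 6.94 to 7.68 RPKM, with 1 of 4 called higher in pillar cells. This was Adgre1, which passed the filter only there. The genes of myelinating glia summed to 24.9 to 26.8 and 19.2 to 19.5 RPKM, with 1 of 7 tested called in each direction. The part of such cells in the levels of Car14, Car7, Car3, Car13 and the other members was not tested.

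**Figure D5:**
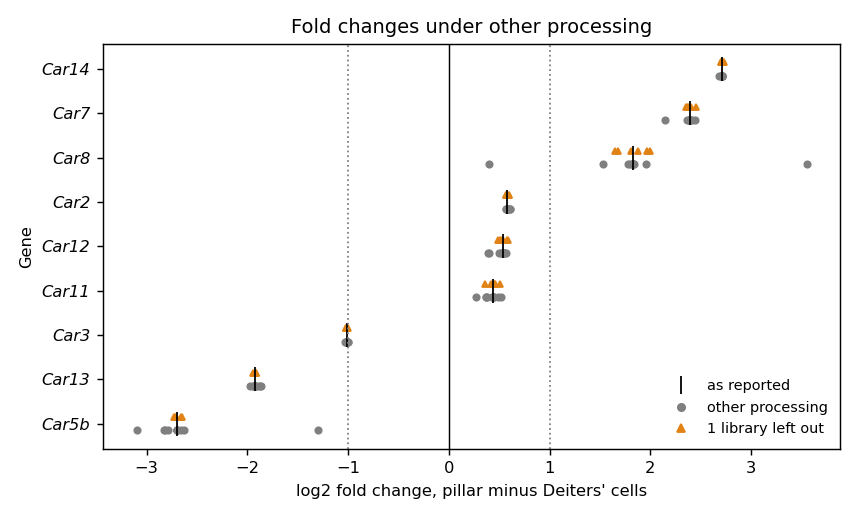
Log2 fold change of each tested member, pillar minus Deiters' cells, as reported (black bars), under other processing (grey circles) and with 1 library left out (orange triangles), with dotted lines at 2-fold. Each member stays on its side of 0, and Car8 and Car5b spread most, from 0.40 to 3.55 and from -3.10 to -1.30.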

How the data were processed

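The values deposited by the authors are RPKM per lane, from paired-end reads mapped in CLC Genomics Workbench to mm10 (GRCm38). The annotation release is not given in the sources used here. The study used DESeq on counts, which the deposited values are not. It also compared mean RPKM of its cell types by ANOVA, at a corrected p of at most 0.01. Of 48440 features, 48058 matched GENCODE M21 by identifier, which gave coordinates and exon lengths. With these lengths the values came out as whole reads (within 0.01) in all lanes for 14383 of 20010 features (71.9%), 8 of the 10 members among them. These reads served for depth, and intervals and floors from them cover counting error only.

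RPKM values of the 2 lanes were averaged per library. Features whose mean exceeded 0.1 RPKM in at least 1 cell type were compared as log2(RPKM + 0.1) with limma 3.58.1 in R 4.3.3. The fit used trended variance, 3 libraries per cell type and Benjamini-Hochberg over 17188 features. It was tried beforehand on simulated libraries with independent noise and altered genes above 1 RPKM. That trial does not cover the lane sets or genes as low as Car8. Calls needed an adjusted p of at most 0.01 and 2-fold, after the study's thresholds for enriched genes. P-values measure the spread between these libraries, which may share mice, and the labels do not say which. Folds are ratios of the mean RPKM of the cell types. Proteins were translated from GENCODE M21 coding sequences and aligned to Car2 with Biopython 1.88.

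The members and lists were chosen with earlier results of these data known. Genes named were all members, the other genes with a carbonic anhydrase domain, up to 4 called genes per pathway list by smallest p (with none called, the 2 highest), up to 3 markers per list, and the 3 nearest to Car14. Slc4a3, Slc4a9, Slc26a6, Cfd, Lep, Adipoq, Calcr, Ocstamp, Dcstamp, Ctsk, Mmp9, Acp5, Mpo and Aph1a were named after their values were seen. So were Ngfr, Npy, Ckm, Sp7, Alas2, Epb42, Ermap, Hbb-bt, Esrrb, Tyr, Pmel, Prg2, Epx, Adgre1, Tek, Slc16a1, Slc16a7 and Bsg. Some results, among them those of 1 pathway list, are not reported here. Alternatives were other pseudocounts, filters, scalings, thresholds, lanes and lane sets, no variance trend, a replicate block and each library left out.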

Additional observations from a re-analysis of the deposited data

How the results depend on the processing

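Of 161 comparisons of a member's log2 fold change with another setting, 157 kept direction and call, 4 lost the call and 0 reversed. The call of Car3 was lost with the lanes of set 2 only (-0.998) and without pillar cell library 3 (-0.999), both by falling just under 2-fold. The call of Car8 was lost with a pseudocount of 1 RPKM (0.401), which shrinks low values by construction, and with the lanes of set 2 only (1.53, limma adjusted p = 0.011). Car8 was not tested with a filter above 1 RPKM. With no fold minimum, 6 members were higher in pillar cells and the count in Deiters' cells stayed at 3, while 5169 and 5475 tested genes were higher in pillar and Deiters' cells. The counts of all tested genes called higher in pillar and Deiters' cells were 1572 and 1224 with a filter above 1 RPKM, which tests fewer genes, and 1001 and 778 with a pseudocount of 1 RPKM. The share of Car13 in the summed RPKM of Deiters' cells was 11.7% in lane L001 and 12% in lane L002. With the library number as a replicate block, 3 members were called in each direction and 2450 and 2253 of all tested genes. Libraries of the same number had correlated deviations of r = -0.286, 0.38 and 0.318 over all genes above 1 RPKM, and of -0.032, 0.033 and 0.062 without genes that differ between lane sets. Not every pair was positive, so the numbers were not read as pairs (genes are not independent replicates). With 1 library left out, the counts of all tested genes called ran from 2401 to 2482 for pillar cells and from 2221 to 2380 for Deiters' cells, and the log2 fold change ran from -1.023 to -0.999 for Car3, 1.651 to 2.001 for Car8 and 2.697 to 2.733 for Car14. Depth limits Car8 and Car4 most, which had the fewest reads of the members.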
